A study of Rattus norvegicus with 60 samples.

Results

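The striatum of rats that received daily vehicle injections was compared with the striatum of rats that received vehicle chow, so neither group had been given a drug. The 5 injection vehicle arrays and the 5 chow vehicle arrays were chosen by their sample titles, as 10 of the 60 arrays of the series. The series set lamotrigine, injected subcutaneously once daily, against injected vehicle, and lithium chloride (LiCl), mixed into chow, against vehicle chow, in striatum, hippocampus and cortex. Rats of the SD strain (the labels' abbreviation) were treated for 21 days, lamotrigine was given at 30 mg/kg and LiCl at 0.2% of the chow, and 20 of the arrays were of striatum, 5 in each of 4 groups. The injection vehicle rats carried the animal numbers 25 to 29 and the chow vehicle rats 49 to 53. Sex, age, the composition of either vehicle and how the chow rats were handled are not stated in the sources read. The route of the vehicle, the handling that goes with it and any batch in which an arm was processed cannot be told apart in this comparison.

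The striatum is the main input nucleus of the basal ganglia, and most of its neurons are GABAergic medium spiny neurons that receive glutamate from the cortex and thalamus and dopamine from the midbrain. Repeated injection is a handling stressor in rodents, and stress raises circulating glucocorticoids, which act through a nuclear receptor on target genes such as Sgk1 and Tsc22d3. The array used here reads many genes with several probe sets, short groups of probes that can lie in different exons, in different ends of a transcript or in transcripts that are only partly spliced.

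Levels are log2 intensities. Differences are injection vehicle minus chow vehicle in log2 units with the standard error (SE) of the fit, and group values are means ± SD (n = 5 each). Adjusted p-values come from limma, with Benjamini-Hochberg adjustment for all 31042 tested probe sets. Called means that the adjusted p lay under 0.05.

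The tissue label was read against 24 medium spiny neuron markers, each on the same probe set in every region. They averaged 11.43 ± 0.15 with injection and 11.54 ± 0.01 with chow in striatum, against 7.86 ± 0.07 and 7.87 ± 0.09 in hippocampus and 8.09 ± 0.07 and 8.07 ± 0.07 in cortex. Correlations between any 2 of the 10 arrays lay between 0.984 and 0.995. Bacterial RNAs that are added to each sample at hybridization, the control probe sets bioB, bioC and bioD, stood lower on the injection vehicle arrays, at 10.01, 10.21, 9.93, 9.96 and 9.79, than on the chow vehicle arrays, at 10.17, 11.44, 10.31, 10.76 and 10.44. The ranges overlapped by a single pair of arrays (difference -0.64, two-sided exact permutation test, p = 0.0159, where the smallest p that 5 against 5 allows is 0.00794). The same probe sets averaged 9.94 ± 0.21 with lamotrigine and 10.47 ± 0.21 with LiCl. The cre controls, also added at hybridization, stood at 13.92 ± 0.06 with injection and 14.07 ± 0.17 with chow (difference -0.15, exact permutation p = 0.0952). The median intensity of an array, on the linear scale, was 97.8 ± 1.27 with injection (96.0 to 99.2) and 95.5 ± 0.79 with chow (94.6 to 96.5), a difference of 2.23 (exact permutation p = 0.0238). The poly-A controls differed by -0.16 and the ratio of 3 prime to 5 prime control signal by -0.03 (exact permutation p = 0.206 and 0.31).

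**Figure D1:**
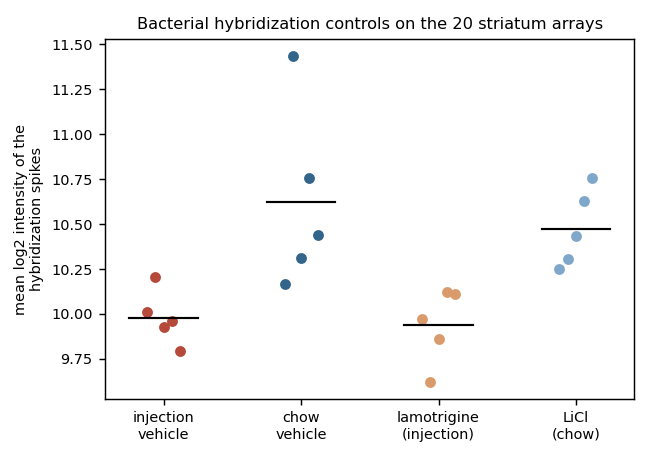
Mean log2 intensity of the bacterial hybridization controls on each of the 20 striatum arrays, with points for arrays and a line for each group mean. Injection vehicle arrays lie between 9.79 and 10.21 and chow vehicle arrays between 10.17 and 11.44.

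Injection vehicle and chow vehicle striata differed at 2119 of 31042 probe sets (6.83%), of which 1188 (3.83%) were higher and 931 (3%) lower with injection. These calls fell on 1339 genes. Most differences were small: the median was 0.49 among higher and -0.33 among lower calls, beside -0.01 over all probe sets, and 94 higher and 13 lower probe sets changed by at least 2-fold. The 5 and 5 values did not overlap for 1732 of the called probe sets (81.7%) and for 2953 (9.51%) of all. With the hybridization control level of each array as a covariate, a fit chosen after seeing the data, 758 probe sets were called, 706 of them shared and in the same direction. The part of that level in the difference was not tested further. When each array was centred on its median, which was higher with injection as given above, 40.1% of calls were higher, beside 56.1% in the fit without centring.

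The largest rises and falls were ranked among called genes whose groups did not overlap. The 15 largest rises ran between 1.46 and 1.21 log2 units. Xiap, an inhibitor of caspases, stood at 6.65, 6.86, 6.75, 6.60 and 6.70 on the injection vehicle arrays and at 5.47, 5.30, 5.20, 5.14 and 5.16 on the chow vehicle arrays. It rose by 1.46 ± 0.11 (2.75-fold, adjusted p = 4.3e-08). Every injection vehicle array lay over a log2 unit above every chow vehicle array. This probe set is dim, with a mean level of 5.88 over the striatum arrays, and the brightest Xiap probe set differed by 0.31 ± 0.06. Of the 30 genes with the largest changes, 8 were named from a probe set with a mean level under 6, namely Xiap, Crebbp, Ro60, Lsm14b, Fryl, Ccdc25, Dedd and Huwe1. Tbl1x, a subunit of the nuclear receptor corepressor complex, read 7.06, 7.25, 7.25, 7.19 and 7.32 with injection, against 5.71, 5.75, 6.02, 5.65 and 5.72 with chow (difference 1.44 ± 0.09, adjusted p = 2.41e-09). Dzip3, an RNA-binding ubiquitin ligase, rose by 1.44 ± 0.09 (adjusted p = 6.59e-09). The further rises among the 15 largest were those of the phosphatase Ptpn4 (1.42), the kinase scaffold Spag9 (1.42), the ubiquitin ligase Peli2 (1.41), the spine protein neurabin, encoded by Ppp1r9a (1.39), the chromatin remodeller Atrx (1.35), the histone acetyltransferase Crebbp (1.33), the postsynaptic scaffold Lrrc7 (1.28), the RNA-binding protein Ro60 (1.25), the axonal kinesin Kif1a (1.25), the ADP-ribosyltransferase Tiparp (1.23), the transcription elongation scaffold Aff4 (1.23) and Phip (1.21), with adjusted p from 6.59e-09 to 0.000576.

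Frmd4b, a scaffold protein with a FERM domain, showed the largest fall. Its values were 4.94, 5.43, 4.97, 5.30 and 5.46 on the injection vehicle arrays and 6.78, 6.73, 6.71, 6.76 and 6.68 on the chow vehicle arrays (difference -1.51 ± 0.26, 2.85-fold lower, adjusted p = 0.000686). Every injection vehicle array lay over a log2 unit below every chow vehicle array. Pik3r1, a regulatory subunit of phosphoinositide 3-kinase, read 6.26, 6.78, 6.11, 6.84 and 6.72 with injection and 7.58, 8.35, 8.24, 7.76 and 8.15 with chow (difference -1.48 ± 0.27, adjusted p = 0.00168). The ubiquitin ligase Rnf6 fell by 1.33 ± 0.17 (adjusted p = 3.42e-05). The remaining falls were Lsm14b (-1.16), Fryl (-1.09), Ccdc25 (-1.08), the death effector protein Dedd (-1.04), the mitochondrial protein Nipsnap2 (-1.01), the dynein subunit Dync1li1 (-0.996), the ubiquitin ligase Huwe1 (-0.99), Qrich1 (-0.94), Dcaf6 (-0.91), the mitochondrial ribosomal protein Mrpl51 (-0.85), the casein kinase subunit Csnk2a1 (-0.83) and the endothelial receptor Cd93 (-0.83), with adjusted p from 1.5e-06 to 0.0182. With the hybridization control level as a covariate, 5 of these 30 genes were no longer called, namely Pik3r1, Lsm14b, Dedd, Qrich1 and Cd93 (adjusted p 0.0780 to 0.425), and all 30 kept their call under every other alternative in which they were tested.

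**Figure D2:**
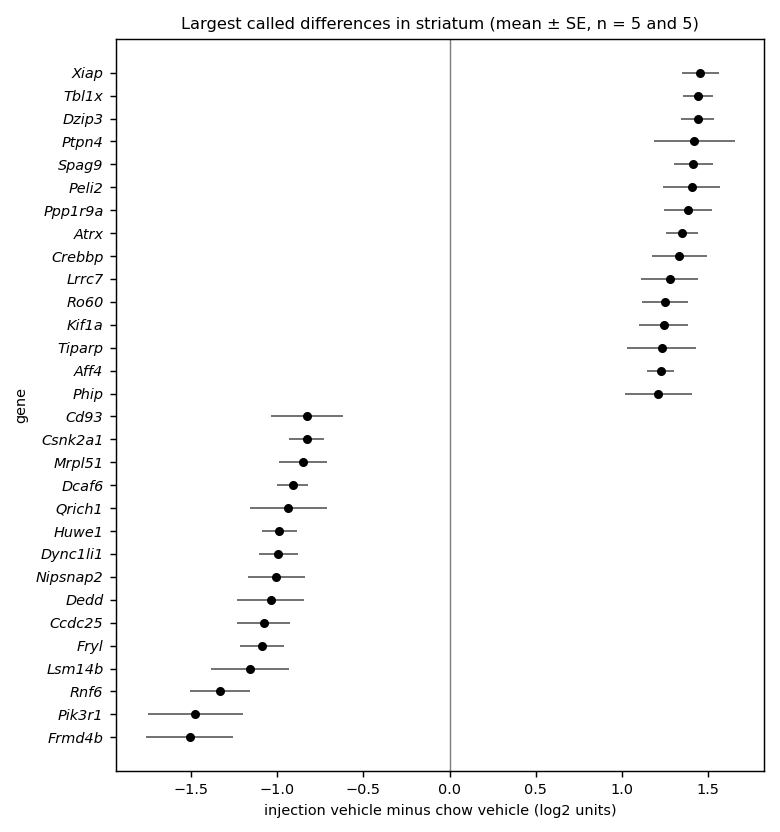
Difference between injection vehicle and chow vehicle in log2 units (x axis) for the 15 genes that rose most and the 15 that fell most, with points for fitted means and bars for the SE (n = 5 and 5). Genes were ranked among called genes whose groups did not overlap. The values run from 1.46 for Xiap to -1.51 for Frmd4b.

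Probe sets of 1 gene often differed in sign and were seldom called together. Of 4525 genes with 2 or more probe sets, 860 had a called one, and among their 1581 other probe sets 1005 (63.57%) had the sign of the leading probe set, beside 58.09% over all pairs of probe sets of 1 gene. Of these other probe sets 168 (10.63%) were called the same way and 45 (2.846%) were called the opposite way. Opposite calls were 30 of 1059 where the leading probe set was called higher and 15 of 522 where it was called lower. Over all probe sets 3.83% were called higher and 3% lower. Those shares hold the leading probe sets, which are left out of the 1581, so the shares cannot be set against each other. All probe sets were called the same way in 35 genes, and 38 genes had probe sets called in both directions. Of the 30 genes above, 25 had several probe sets, and 8 of these 25 had only 1 probe set called. All probe sets were called alike in 5 (Xiap, Lrrc7, Ro60, Frmd4b and Nipsnap2), and Tbl1x, Dync1li1, Huwe1 and Csnk2a1 were called both ways.

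Zbtb7a, which encodes a transcriptional repressor, was lower at 4 of its 4 probe sets, by differences of -0.68 ± 0.08, -0.65 ± 0.08, -0.37 ± 0.09 and -0.33 ± 0.07 (adjusted p from 6.33e-06 to 0.0158). Its largest difference came from values of 8.12, 8.32, 8.15, 8.03 and 8.22 with injection and 8.66, 8.95, 8.89, 8.85 and 8.91 with chow. The groups overlapped at none of the 4. Aff4 rose at 3 of 4 probe sets (1.23, 0.95 and 0.44) and its brightest, at a level over 10, differed by -0.13 ± 0.07 without passing. Dzip3 rose at 3 of 4 (1.44, 0.46 and 0.33), Bpnt2, an inositol monophosphatase family member, at 3 of 4 (0.99, 0.83 and 0.74), and the endosomal sorting protein Snx27 at 3 of 4 (0.83, 0.37 and 0.29). Atrx rose at 3 of 6 (1.35, 0.76 and 0.45). The Snx27 call at 0.29 was lost in 13 of 21 alternatives. Those of Dzip3 at 0.46 and 0.33 were lost in 12 of 21 and 5 of 20. Each other call of these 6 genes was lost in 2 or fewer. In Aff4, Dzip3, Bpnt2 and Snx27 the probe set that was not called was the brightest of its gene.

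Rab14, a small GTPase of endosome traffic, had 2 probe sets called higher and 2 called lower. At one it read 11.21, 11.42, 11.58, 11.09 and 11.14 with injection and 10.32, 10.24, 10.35, 10.38 and 10.43 with chow (difference 0.94 ± 0.10, adjusted p = 4.51e-06). At another it read 9.40, 8.84, 8.69, 9.33 and 9.41 with injection and 9.81, 10.11, 9.91, 9.93 and 9.9995 with chow (difference -0.81 ± 0.13, adjusted p = 0.000299). Neither pair of groups overlapped, so the same arrays gave both directions for this gene. Gnb1, a G protein beta subunit, was higher by 0.99 ± 0.19 at 1 probe set and lower by 0.67 ± 0.10 and 0.66 ± 0.15 at 2 others. The cytoskeletal protein vinculin, encoded by Vcl, was higher by 1.18 ± 0.14 at 1 probe set and lower at 2 (-0.58 and -0.29). The histone methyltransferase Ash1l was higher at 3 probe sets (1.16, 0.66 and 0.51) and lower at 1 (-0.43), Tbl1x was higher at 1 (1.44) and lower at 1 (-0.41), and Csnk2a1 was higher at 1 (0.73) and lower at 1 (-0.83). The Ash1l call at 0.66 was lost in 15 of 20 alternatives and the Vcl call at -0.29 in 7 of 21. Which probe set reads which part or isoform of a transcript is not stated in the sources read.

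**Figure D3:**
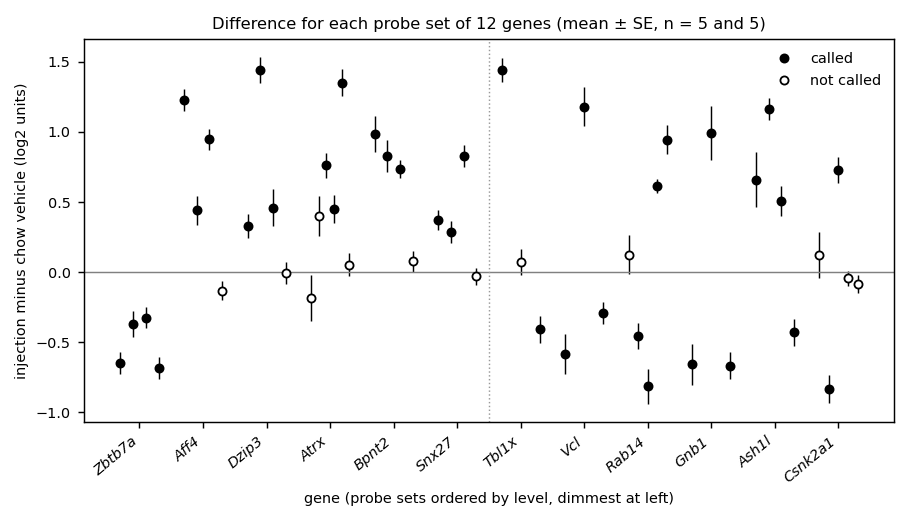
Difference between injection vehicle and chow vehicle in log2 units (y axis, mean ± SE, n = 5 and 5) for each probe set of 12 genes (x axis). Filled points were called and open points were not, genes left of the dotted line were those with most probe sets called alike, and genes right of it, such as Rab14 at 0.94 and -0.81, had calls in both directions.

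The direction of the calls moved with the rank of the probe set within its gene and with the length of the gene. Of the brightest probe sets of their genes 1.89% were higher and 3.83% lower, whereas of the other probe sets of a gene 8.32% were higher and 2.86% lower. Genes called only higher (659) spanned a median of 63 kb on the RefSeq rat assembly GRCr8, genes called only lower (642) a median of 18.8 kb and genes not called 21.2 kb. Genes with calls in both directions spanned a median of 52.2 kb. These shares and spans were not tested. By level, higher calls outnumbered lower ones under 8 (2.45% against 1.05% below a level of 6, and 5.49% against 3.05% from 6 to 8), and lower calls were the more frequent above 8 (6.05% against 4.42% from 8 to 10, and 4.53% against 3.33% at 10 and over).

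Lists of genes were read with the brightest probe set of each gene, of which 5.72% were called over all 14217 genes, with a median difference of -0.04. Of the 43 lists, 13 had no called member, 16 had 1 and 14 had 2 or more. Of the 54 called members with the largest differences in their lists 30 had several probe sets, and 8 of those (Dusp6, Hlf, Stat3, Marcks, Ctnnb1, Psmd11, Ash1l and Thrb) had probe sets called both ways.

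In the list of the glucocorticoid receptor and its targets, 20 of 24 measured genes had positive values, with a median of 0.13, and 4 rose and 0 fell (16.7% called). Sgk1, a kinase that regulates ion transport, read 11.17, 10.56, 11.06, 12.09 and 11.44 on the injection vehicle arrays and 10.09, 10.26, 10.36, 10.27 and 10.06 on the chow vehicle arrays (difference 1.05 ± 0.19, adjusted p = 0.00144). Pdk4, which inhibits the pyruvate dehydrogenase complex, read 6.88, 5.58, 6.63, 8.40 and 7.60 with injection and 5.53, 5.74, 5.98, 5.65 and 5.34 with chow (difference 1.37 ± 0.35, adjusted p = 0.0184). Sgk1 did not overlap between the groups, while the lowest injection vehicle value of Pdk4 lay within the chow vehicle range. Nfkbia, the inhibitor of NF-kappa-B, read 8.07, 7.59, 8.02, 8.52 and 8.06 with injection and 7.42, 7.46, 7.22, 7.45 and 7.36 with chow (difference 0.67 ± 0.13, adjusted p = 0.00286). Tsc22d3, a leucine zipper protein that mediates glucocorticoid effects, read 10.03, 9.84, 9.77, 10.23 and 10.25 with injection and 9.45, 9.60, 9.81, 9.64 and 9.73 with chow (difference 0.38 ± 0.10, adjusted p = 0.0251). Sgk1, Pdk4 and Nfkbia were all highest on injection vehicle replicate 4 and lowest, among the injection vehicle arrays, on replicate 2. Of the 10 arrays, replicate 4 also had the highest mean level of oligodendrocyte (11.16), astrocyte (10.99) and cortical projection neuron (8.04) markers and the lowest of medium spiny neuron (11.19) and endothelial (6.80) markers, and replicate 2 the highest of choroid plexus (9.14) and the lowest of cortical markers (7.15). Their part in these differences was not tested. Without replicate 4 the differences were 0.85 for Sgk1, 1.03 for Pdk4 and 0.55 for Nfkbia, all called (adjusted p = 0.00162, 0.0415 and 0.00637), and 0.33 for Tsc22d3, which was not (adjusted p = 0.0646). Tsc22d3 lost its call in 8 of 21 alternatives and Pdk4 in 2 (with the hybridization control level as a covariate and without injection vehicle replicate 5), whereas Sgk1 kept it in 21 of 21. The receptor Nr3c1 (-0.04 ± 0.06) and the chaperone Fkbp5 (-0.10 ± 0.11), itself a glucocorticoid target, were not called.

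The 250 bases before the annotated starts of these 4 genes (8 starts, RefSeq, GRCr8) were read to show what lies there. The half-site of the glucocorticoid receptor, AGAACA on either strand, was in 0 of the 8 windows and in 17.5% of 33469 such windows of the rat. The full site, a pair of facing half-sites with 3 bases between them, was in 0 of the 8 and in 0.012% of all. Sequences of a kappa-B motif (1.3% of all windows), a forkhead motif (TGTTTAC, 3.21%) and a TATA box (TATAAA, 12.9%), searched on both strands and chosen after the windows were read, are in capitals in these windows of Nfkbia (chr6:78597073-78597322, minus strand, kappa-B) and of the third listed start of Tsc22d3 (chrX:109010035-109010284, minus strand, forkhead and TATA box). A cAMP response element (TGACGTCA, 1.59% of all windows) and an E-box (CACGTG, 5.59%) were searched too and were in none of the 8 windows. The TATA box was also in 2 of the 3 windows of Sgk1, which are not printed, 55 bases before the first listed start and 33 before the third. The sequences are printed 5′ to 3′ and are matches of letters only.
Nfkbia: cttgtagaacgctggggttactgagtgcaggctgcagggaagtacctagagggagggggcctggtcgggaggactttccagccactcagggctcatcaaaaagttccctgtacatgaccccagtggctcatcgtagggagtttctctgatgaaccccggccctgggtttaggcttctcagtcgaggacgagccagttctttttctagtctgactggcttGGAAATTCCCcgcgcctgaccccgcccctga
Tsc22d3: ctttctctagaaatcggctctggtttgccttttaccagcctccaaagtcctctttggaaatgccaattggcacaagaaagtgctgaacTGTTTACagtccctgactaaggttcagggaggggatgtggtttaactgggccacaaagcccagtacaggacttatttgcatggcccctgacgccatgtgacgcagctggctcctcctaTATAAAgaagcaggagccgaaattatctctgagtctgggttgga

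Glutamate receptors and their scaffolds held the largest share of called members, with 7 higher and 1 lower of 21 (38.1%) and a median of 0.15. Grm5, a metabotropic receptor coupled to phospholipase C, read 10.14, 10.67, 10.51, 10.05 and 10.28 on the injection vehicle arrays and 9.36, 8.53, 9.07, 9.37 and 9.43 on the chow vehicle arrays (difference 1.18 ± 0.20, adjusted p = 0.000607). Both of its probe sets were called higher. Camk2a, the alpha subunit of the calcium and calmodulin-dependent kinase of synapses, read 10.88, 10.42, 10.82, 10.47 and 10.62 with injection and 10.27, 8.82, 10.08, 9.50 and 8.84 with chow (difference 1.14 ± 0.27, adjusted p = 0.0108). Its chow vehicle arrays were spread over more than a log2 unit, and 1 of its 4 probe sets was called. The metabotropic receptor Grm3 (0.72 ± 0.08), the NMDA receptor subunits Grin2a (0.65 ± 0.14) and Grin3a (0.58 ± 0.13) and the AMPA receptor subunits Gria1 (0.64 ± 0.10) and Gria2 (0.46 ± 0.09) also rose. Grin1, the obligatory NMDA receptor subunit, fell by 0.42 ± 0.08 (adjusted p = 0.00112), to 10.25, 10.26, 10.28, 9.92 and 10.11 with injection, against 10.55, 10.62, 10.58, 10.65 and 10.54 with chow. The scaffolds Dlg4 (0.15 ± 0.13), Homer1 (-0.01 ± 0.12) and Shank3 (-0.36 ± 0.15) were not called. Camk2a, Grin2a and Grin1 were not called with the hybridization control level as a covariate (adjusted p 0.239, 0.0541 and 0.0823), and Grm5 was called in 21 of 21 alternatives.

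Genes of GABA signalling went both ways. Gad2, which makes GABA from glutamate, read 9.59, 9.45, 9.62, 9.46 and 9.61 on the injection vehicle arrays and 8.73, 8.64, 8.28, 8.53 and 8.46 on the chow vehicle arrays (difference 1.02 ± 0.14, adjusted p = 8.99e-05). The groups lay apart by more than the range of either. Of 11 measured GABA receptor genes and gephyrin, 2 were called (18.2%, beside 5.72% over all genes). The receptor subunit Gabrg1 rose by 0.88 ± 0.12 (adjusted p = 5.06e-05) and Gabrb1 fell by 0.33 ± 0.07 (adjusted p = 0.0045). Gabrg1 read 8.16, 8.19, 8.24, 8.63 and 8.54 with injection and 7.50, 7.41, 7.48, 7.44 and 7.54 with chow. Gabrb1 was not called with the hybridization control level as a covariate, while Gad2 and Gabrg1 were called in 21 of 21 alternatives. Among release genes (2 of 22 called, 9.09%) Cplx2, which regulates vesicle fusion, rose by 0.74 ± 0.08 and the active zone scaffold Rims1 by 0.65 ± 0.11. Of 20 sodium and calcium channel genes (10% called) the calcium channel subunit Cacnb4 rose by 0.91 ± 0.21 and Cacng2, which escorts AMPA receptors, fell by 0.50 ± 0.09. Of 18 potassium channel genes (5.56% called) Kcnq3 rose (0.68 ± 0.19), a call lost in 12 of 21 alternatives.

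**Figure D4:**
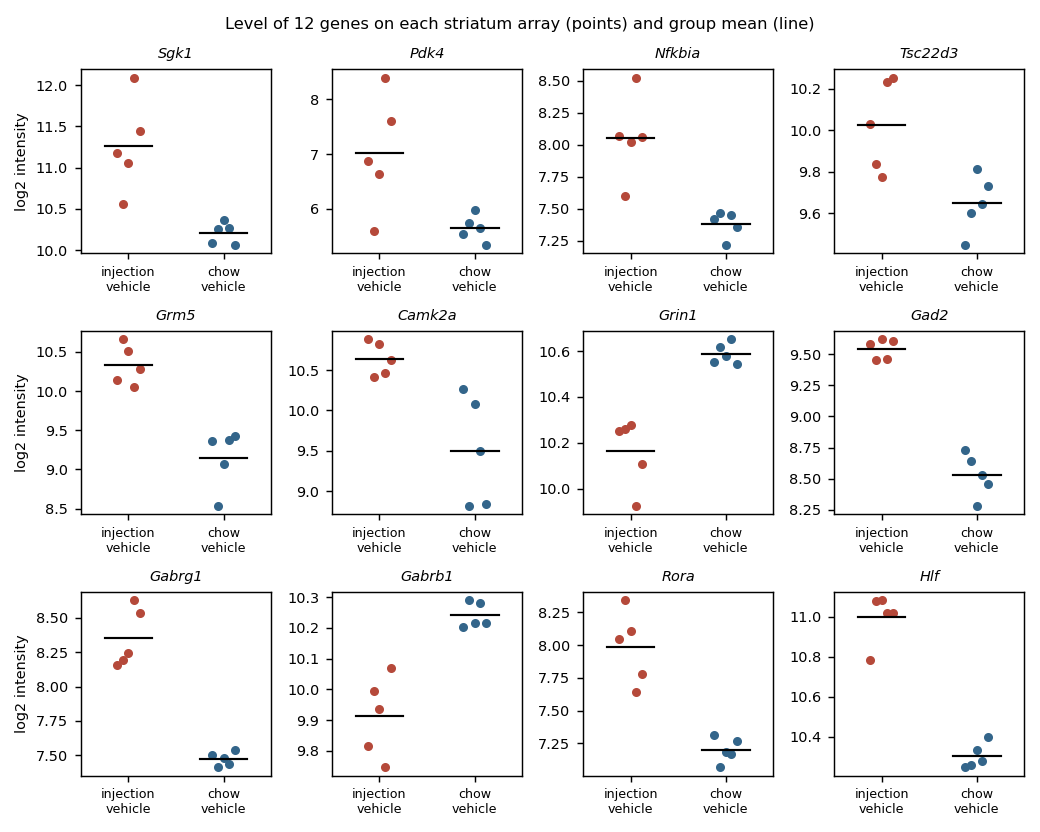
Log2 intensity (y axis) of 12 genes on the 5 injection vehicle and the 5 chow vehicle striatum arrays, with points for arrays and a line for each group mean. Sgk1 lies between 10.56 and 12.09 with injection and between 10.06 and 10.36 with chow, and Pdk4 and Tsc22d3 are the 2 genes shown whose groups overlap.

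Clock genes were called in 5 of 20 cases (25%), all higher, with 11 of 20 values positive and a median of 0.08. The nuclear receptors Rorb (0.96 ± 0.19, adjusted p = 0.00314) and Rora rose, as did the PAR bZIP factor Hlf. Rora read 8.05, 8.34, 8.10, 7.64 and 7.78 with injection and 7.32, 7.07, 7.18, 7.17 and 7.27 with chow (difference 0.78 ± 0.11, adjusted p = 0.000136). Hlf read 10.78, 11.08, 11.08, 11.02 and 11.02 with injection and 10.25, 10.26, 10.33, 10.28 and 10.40 with chow (difference 0.69 ± 0.08, adjusted p = 1.7e-05), and another of its 4 probe sets was called lower. Smaller rises were those of the repressors Bhlhe41 (0.24 ± 0.06) and Nr1d2 (0.24 ± 0.06). The core genes Bmal1 (-0.21 ± 0.17), Clock (-0.15 ± 0.09), Per1 (0.24 ± 0.10), Per2 (0.36 ± 0.15) and Cry1 (-0.33 ± 0.12) were not called. The hours at which the rats of each arm were killed are not stated in the sources read.

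In activity and signalling lists 3.57% of immediate early, 15% of cAMP and protein kinase C and 12.5% of Wnt genes were called. The shares were 13% of phosphoinositide and 7.14% of neurotrophin genes, beside 5.72% over all genes. Each share rests on a few calls, and whether the shares differ from each other or from 5.72% was not tested. Of 28 immediate early genes 1 was called, the MAP kinase phosphatase Dusp6, which fell by 0.51 ± 0.13 and had another probe set called higher. Fos differed by 0.12 ± 0.41. Of 20 genes of cAMP and protein kinase C signalling the transcription factor Creb1 (0.61 ± 0.12, with 3 of 4 probe sets called higher) and the kinase Prkce (0.46 ± 0.07) rose and the kinase substrate Marcks fell by 0.28 ± 0.05, with another of its probe sets called higher. Of 24 Wnt pathway genes the coreceptor Lrp6 rose by 0.77 ± 0.13, while Dvl1 (-0.24 ± 0.07) and beta-catenin, encoded by Ctnnb1 (-0.23 ± 0.04), fell. Of 23 phosphoinositide and inositol genes Slc5a3, an inositol transporter, rose by 0.65 ± 0.19 and, beside Pik3r1, the inositol synthase Isyna1 fell by 0.34 ± 0.09. Vgf, a secreted neuropeptide precursor, fell by 0.48 ± 0.15 (adjusted p = 0.0483) and was the single call of 14 neurotrophins and secreted factors. The calls of Dvl1, Slc5a3, Isyna1 and Vgf were lost in 11, 12, 8 and 15 of 21 alternatives.

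Of 19 genes of feeding and insulin signalling 3 were called (15.8%, beside 5.72% over all genes). The transcription factor Foxo1 rose by 0.75 ± 0.16 (adjusted p = 0.00509), Pdk4 rose as above, and Foxo3 fell by 0.28 ± 0.05 (adjusted p = 0.0016). In the thyroid hormone list (2 of 11, 18.2%) Dio2, the deiodinase that activates thyroid hormone, rose by 0.82 ± 0.13 and the receptor Thrb fell by 0.31 ± 0.07. In the chromatin list (2 of 19, 10.5%) the histone demethylase Kdm6b rose by 0.71 ± 0.10 and Ash1l fell at its brightest probe set. Among apoptosis genes (3 of 16, 18.8%) Xiap (0.31 ± 0.06 at its brightest probe set), Bcl2 (0.31 ± 0.07) and Bcl2l1 (0.22 ± 0.07) rose. Each of these shares rests on a few calls, and its difference from 5.72% was not tested. Bcl2l1 lost its call in 13 of 21 alternatives. The probe sets of Dio2 and Bcl2 are dim, with mean levels under 6 over the striatum arrays.

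Chaperone genes of the endoplasmic reticulum were called in 2 of 25 cases (8%, beside 5.72% over all genes). The median of the list was -0.04, as it was over all genes. Both calls were lower: Hyou1 (-0.71 ± 0.16, adjusted p = 0.00978, groups overlapping) and the disulfide isomerase Pdia4 (-0.40 ± 0.10). Hyou1 was not called with the hybridization control level as a covariate (adjusted p = 0.0612). Several lists held a single call each, at shares from 3.45% to 5.88%. These were the heat shock factor Hsf1 (-0.28 ± 0.08) among 17 heat shock genes and Stat3 (0.46 ± 0.10) among 28 inflammatory mediators. The sterol exporter Abcg1 (0.22 ± 0.05) was that of 18 cholesterol genes and Psmd11 (0.23 ± 0.04) that of 26 proteasome subunits. The cold-inducible RNA-binding protein Cirbp (-0.31 ± 0.08) was that of 29 splicing and processing genes. Of 3 measured sex-linked genes Uty was called (0.27 ± 0.08). Hsf1, Cirbp and Uty lost their calls in 11, 7 and 10 of 21 alternatives. No member was called among 16 oxidative stress genes, 17 hypoxia and glycolysis genes, 22 monoamine and related receptors, 28 oxidative phosphorylation subunits and 20 cytosolic ribosomal proteins, whose medians lay between 0.00 and 0.03.

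Of the markers of striatal neurons, 1 of 24 medium spiny neuron genes was called: Rasgrp2, an exchange factor of Rap GTPases, fell by 0.64 ± 0.16 (adjusted p = 0.0161), and 19 of the 24 values were negative (median -0.13). The mean level of the list was 11.41, 11.55, 11.55, 11.19 and 11.49 on the injection vehicle arrays and 11.53 to 11.55 on the chow vehicle arrays, a difference of -0.10, or -0.04 without injection vehicle replicate 4, an array left out after seeing the data. Among 13 genes of dopamine neurons and axons the monoamine oxidase Maoa rose by 0.41 ± 0.06 (adjusted p = 0.0002). Gad2 was the single call of 14 interneuron markers, and Rorb that of 15 cortical projection neuron markers. Since Gad2 makes GABA and medium spiny neurons are GABAergic, it is not particular to interneurons in striatum. The cortical list stood at 7.92, 7.15, 7.40, 8.04 and 7.79 on the injection vehicle arrays and at 7.18 to 7.46 on the chow vehicle arrays. Injection vehicle replicates 1, 4 and 5 thus lay above every chow vehicle array. Its mean differed by 0.33, by 0.23 without replicate 4 and by 0.46 without replicate 2, with 11 of 15 values positive (median 0.12). The part of cortical tissue in the calls of Rorb, Camk2a and other genes was not tested. In bulk tissue, fewer cells of a type and less RNA per cell cannot be told apart.

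Glial, vascular and neighbouring tissue lists held 3 calls. They made up 4.76% of endothelial and pericyte, 5.88% of astrocyte and 7.14% of precursor and proliferation genes, beside 5.72% over all genes. Pecam1 fell by 0.39 ± 0.11 among 21 endothelial and pericyte markers, 18 of which had negative values (median -0.24). The list stood at 7.45, 7.48, 7.50, 6.80 and 7.06 on the injection vehicle arrays and at 7.40 to 7.49 on the chow vehicle arrays, so that replicates 4 and 5 lay below all others. Its mean differed by -0.19, or by -0.08 without replicate 4. The sodium pump subunit Atp1b2 fell by 0.40 ± 0.11 among 17 astrocyte markers, and Sox11 rose by 1.03 ± 0.13 (adjusted p = 2.53e-05) among 14 genes of oligodendrocyte precursors and proliferation. The calls of Pecam1 and Atp1b2 were lost in 6 and 9 of 21 alternatives. Sox11 is a transcription factor of immature neurons and progenitors and read 6.08, 5.87, 5.88, 5.78 and 5.99 with injection and 4.54, 4.98, 5.02, 5.01 and 4.91 with chow. This probe set is dim, with a mean level under 6 over the striatum arrays. No call fell on 17 oligodendrocyte, 17 microglial, 24 interferon and antigen presentation, 12 blood, 11 ependymal, 17 meningeal, 17 thalamic and hypothalamic or 14 choroid plexus genes.

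Choroid plexus genes had positive values in 14 of 14 cases (median 0.80) without a call, and 1 array carried most of it. Their mean level was 9.14 on injection vehicle replicate 2 and 5.66 to 6.44 on the other 4 injection vehicle arrays, against 5.54 to 6.14 on the chow vehicle arrays. The transthyretin gene Ttr, the defining marker, averaged 10.92 ± 2.79 with injection and 8.81 ± 1.22 with chow. Without that array 1786 probe sets were called, and 8 of 121 named calls were lost. With the hybridization control level as a covariate, 51 of 121 named calls were lost, among them those of Rorb, Bhlhe41, Foxo1, Creb1, Ctnnb1, Cacng2, Thrb, Dusp6, Rasgrp2 and Gng7.

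The drug arrays carried the same 2 arms, since lamotrigine was injected and LiCl was fed in chow. They enter neither mean of the vehicle comparison but lend their spread to its standard errors, and in a fit of the 2 vehicle groups alone 2830 probe sets were called, 1985 of them shared and in the same direction. Lamotrigine and LiCl striata differed at 5798 probe sets (18.7%), a contrast that holds both the arm and the 2 drugs (9.68% higher and 9% lower with lamotrigine). Of the probe sets higher with injection vehicle, 833 (70.1%) were higher with lamotrigine than with LiCl, and of those lower 648 (69.6%) were lower. None was called the opposite way, and 97% had the same sign, beside 70.8% of all probe sets. Of the 30 genes with the largest changes 30 had the same sign and 27 were called. Sgk1 differed by 1.11 between lamotrigine and LiCl (adjusted p = 0.000605), Pdk4 by 1.18 (adjusted p = 0.0229), Nfkbia by 0.59 (adjusted p = 0.00431) and Gad2 by 1.02 (adjusted p = 8.56e-05). Kif1a (0.28), Phip (0.50) and Pik3r1 (-0.66) among the 30 genes, and Tsc22d3 (0.25), Camk2a (0.60) and Cplx2 (0.17), were not called there.

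The vehicle arms also differed in the other regions, with 5747 called probe sets in hippocampus (18.5%) and 5875 in cortex (18.9%). The 5 injection vehicle animals gave all 3 regions, and the chow vehicle numbers of striatum were shared by 5 cortex and 3 hippocampus arrays, so the regions are not independent animals. Of the probe sets higher with injection in striatum, 820 (69%) were higher in hippocampus and 939 (79%) in cortex. Of those lower in striatum, 361 (38.8%) were lower in hippocampus and 669 (71.9%) in cortex. Opposite calls numbered 7 and 2. In all 3 regions 750 probe sets were called higher and 319 lower. The hybridization controls also stood lower with injection in these regions, by a difference of -0.32 in hippocampus (exact permutation p = 0.00794) and -0.79 in cortex (exact permutation p = 0.0794). In hippocampus the poly-A controls differed by 0.38, the interquartile range of an array by 0.13 and the median intensity by 2.935 (exact permutation p = 0.0159, 0.0159 and 0.00794). In cortex these differed by -0.27, -0.04 and 2.8 (exact permutation p = 0.0952, 0.0318 and 0.0556). Their part in the calls was not tested.

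The striatal difference itself departed from the mean of the hippocampal and cortical differences at 151 probe sets (0.486%), 70 of them above and 81 below, and 69 of the 151 were also called in striatum. Kif1a, the kinesin that carries synaptic vesicle precursors, stood out most: at 1 probe set it read 9.83, 9.93, 9.69, 9.87 and 9.65 with injection and 9.01, 8.52, 8.91, 9.08 and 8.92 with chow in striatum. That difference of 0.91 ± 0.12 stood beside -0.58 ± 0.07 in hippocampus and 0.11 ± 0.17 in cortex (departure 1.13 ± 0.16, adjusted p = 4.04e-05). Another Kif1a probe set, the one named among the largest rises, had positive differences in all 3 regions. Crebbp (departure 0.96), the neuronal calcium sensor Hpcal4 (0.80) and Ppp1r9a (0.77) also rose more in striatum than in the mean of the other regions, while Bod1l1 (0.97) and the ubiquitin ligase Herc1 (0.90) had negative differences in all 3 regions that were smaller in size in striatum. On the other side, the integrin subunit Itgav (-0.74), the receptor Calcrl (-0.71) and the cleavage factor Cpsf6 (-0.67) had positive differences in all 3 regions that were smaller in striatum. Rasgrp1, an exchange factor of Ras (-0.84), Gng7, a striatal G protein gamma subunit (-0.69), and the fatty acid elongation enzyme Hacd3 (-0.64) had negative differences in striatum. That of Rasgrp1 was small and not called, between -0.29 and -0.10 over the alternatives (adjusted p 0.224 to 0.912). Gng7 read 10.63, 11.08, 10.90, 10.04 and 10.84 with injection and 11.27, 11.21, 11.23, 11.31 and 11.32 with chow, and its difference of -0.57 ± 0.15 stood beside 0.16 ± 0.07 in hippocampus and 0.07 ± 0.13 in cortex. Its striatal call was lost in 6 of 21 alternatives, among them that without injection vehicle replicate 4, the array lowest in medium spiny neuron markers (11.19). The part of that array in the departure was not tested. The number of such probe sets ranged between 75 and 217 when 1 array was left out, and was 75 without striatum chow vehicle replicate 2.

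**Figure D5:**
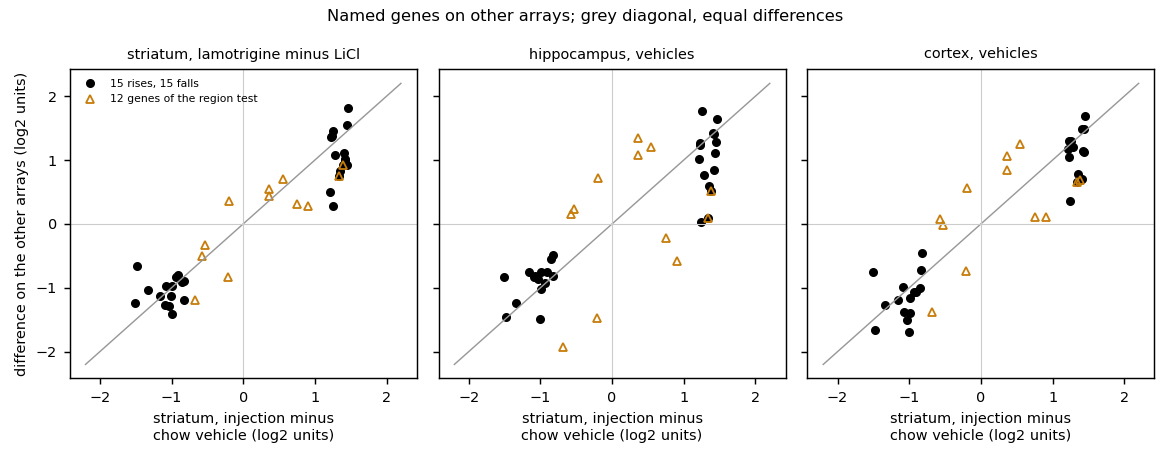
Difference in log2 units of named genes between lamotrigine and LiCl in striatum, and between injection vehicle and chow vehicle in hippocampus and in cortex (y axes), against their difference between injection vehicle and chow vehicle in striatum (x axes). The 30 genes with the largest changes (filled) lie on the same side of 0 in each panel. The 12 genes of the region test (triangles) were chosen by their departure from hippocampus and cortex, so their distance from the diagonal there follows from that choice. A Kif1a probe set lies at 0.91 in striatum and -0.58 in hippocampus. Kif1a (by another probe set), Crebbp and Ppp1r9a are also among the 30 genes.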

How the data were processed

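Total RNA was extracted with Trizol from snap-frozen, microdissected rat brain regions, labelled with biotin and hybridized to Affymetrix arrays. The labels also hold a mouse tissue entry and an entry of constant delivery, while organism, strain and design text give rats and daily injection, which were used. The authors processed the arrays with RMA in R 2.7.2 per the submitters' processing notes, which corrects background, normalizes across arrays and gives 1 value to each probe set, and deposited the values as intensities on a linear scale. Such normalization can shift probe sets that did not change when many others did. The sources read do not state whether the regions were normalized as 1 set.

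The log2 of each value was taken with no pseudocount. Of 31099 probe sets 57 controls were left out, and 31042 were tested. The annotation of the array gave 1 symbol for 20826 probe sets (14217 genes), several for 436 and none for 9780, and 20758 were found in RefSeq by gene ID. A model with 1 mean for each of the 4 striatum groups was fitted with limma 3.58.1 in R 4.3.3 (eBayes with an intensity trend), two-sided, with Benjamini-Hochberg adjustment. The region test used all 60 arrays with animal number as a random block (consensus correlation 0.133). Fits were tested on simulated data.

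Named genes were the 15 largest called, non-overlapping rises and falls, up to 4 called members of each of 43 lists in each direction (or 2 with the largest difference), 6 genes with most probe sets called alike and 6 called both ways, and the 6 largest region differences each way. Other genes of the glutamate, glucocorticoid and clock lists were named after their values were seen. The members and lists were chosen with earlier results of these data known. Nothing but animal numbers says that samples of a group are separate animals. Median intensities of the 10 arrays lay between 94.6 and 99.2, and the number of arrays limits the precision. Alternatives were quantile normalization, centring, omission of dim probe sets (mean level under 6), no intensity trend, array covariates, array weights, a fit of the 2 groups alone, a replicate block, omission of each array and, chosen after seeing the data, the hybridization control level (14 probe sets) as a covariate and omission of the array high in choroid plexus genes.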

Additional observations from a re-analysis of the deposited data

Results flagged for a closer look

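Of 324 groups of 5 arrays among the named probe sets, 25 held an array far from the others (a gap to the nearest array over 0.71 of the range of the group), and chance gives about 1 in 20 groups. Injection vehicle replicate 2, the array high in choroid plexus genes, stood apart at 8.13 for the matrix protein Fmod, 7.39 for RT1-Da, 8.30 for Slc5a3, 8.96 for an Aff4 probe set and 10.6 for a Csnk2a1 probe set. Injection vehicle replicate 4 stood apart at 8.49 for Hyou1, 10.4 for Atp1b2, 10.3 for an Aff4 probe set, 8.82 for an Ash1l probe set and 7.37 for a Csnk2a1 probe set. Among the other injection vehicle arrays these were replicate 1 for Hlf (10.8) and Cacng2 (8.13), replicate 3 for Rnf6 (6.94) and replicate 5 for Fryl (4.65). Chow vehicle replicate 5 stood apart at the class II histocompatibility genes and their chaperone, with levels of 11.2 for Cd74 (others 6.18 to 6.78), 10.3 for RT1-Da (others 5.73 to 6.13) and 8.44 for RT1-Db1 (others 5.07 to 5.21). Among the other chow vehicle arrays these were replicate 1 for Sox11 (4.54), Psmd11 (10.3) and a Csnk2a1 probe set (9.90), replicate 2 for Lsm14b (6.98), an Aff4 probe set (7.70) and a Rab14 probe set (9.80), replicate 3 for Tbl1x (6.02) and replicate 4 for Bcl2 (4.85).

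The difference between injection vehicle and chow vehicle departed in striatum from the mean of hippocampus and cortex, by a limma test of the departure with Benjamini-Hochberg adjustment, for Kif1a (1.13, adjusted p = 4.04e-05), Bod1l1 (0.97, adjusted p = 0.00372), Crebbp (0.96, adjusted p = 0.00523), Herc1 (0.90, adjusted p = 0.00615), Hpcal4 (0.80, adjusted p = 0.00079) and Ppp1r9a (0.77, adjusted p = 0.00527), and on the negative side for Rasgrp1 (-0.84, adjusted p = 0.0264), Itgav (-0.74, adjusted p = 0.00215), Calcrl (-0.71, adjusted p = 0.000614), Gng7 (-0.69, adjusted p = 0.00726), Cpsf6 (-0.67, adjusted p = 0.00215) and Hacd3 (-0.64, adjusted p = 0.000529).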

How the results depend on the processing

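Between injection vehicle and chow vehicle, 2119 probe sets were called (1188 higher, 931 lower). Centring the arrays gave 1536 lower calls, array weights gave 4183 (2094 higher, 2089 lower), and the hybridization control level as a covariate gave 758 (525 higher, 233 lower). With 1 array left out, 1514 to 2064 were called, 918 to 1205 of them higher and 596 to 859 lower, with lower calls of 596 without chow vehicle replicate 3 and 616 without replicate 4. No named call was reversed in any alternative. Between lamotrigine and LiCl 5798 were called (3004 higher, 2794 lower). Array spread as a covariate gave 2686 (1488 higher, 1198 lower), the 2 groups alone 3264 (1720 higher, 1544 lower), the hybridization control level 2277 (1247 higher, 1030 lower), and omission of dim probe sets 1735 higher calls. With 1 array left out 4313 to 5504 were called. The region test called 151 (70 above, 81 below). It called 254 (169 below) without dim probe sets, 77 (28 below) with array spread as a covariate, 447 (109 above, 338 below) with the 3 prime to 5 prime ratio and 76 (40 above, 36 below) without the animal block. With 1 array left out it called 75 to 217, 42 to 128 above and 33 to 127 below, with 75 without striatum chow vehicle replicate 2, 92 (46 above, 46 below) without striatum chow vehicle replicate 5, 128 above without cortex injection vehicle replicate 4 and 127 below without cortex chow vehicle replicate 4. The cause of these shifts was not tested, beyond fewer probe sets or arrays where some were left out.

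Replicate numbers are those of different animals in the 2 vehicle groups, and the deviations of arrays of the same number correlated at -0.23 to -0.01, so they do not pair. A replicate block gave 1756 calls (1043 higher, 713 lower), 5063 between lamotrigine and LiCl and 149 in the region test, and 12 of 121 named calls were lost. The share of other probe sets with the sign of the leading one was 64.53% after quantile normalization and 63.31% without dim probe sets. Of the 31042 probe sets 12851 had a mean level under 6, where differences are least certain.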
